A study of Mus musculus with 4 samples.

Results

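The collagen chains were examined as a gene family in mouse embryonic fibroblasts, the mesenchymal cells that grow out of embryo tissue in culture and lay down its fibrous matrix. Members were all probe sets whose gene symbol reads Col, a number, the letter a and a number. That rule, which uses no measured value, found 58 probe sets for 36 collagen genes, out of 12394 genes with a probe set of their own. By class, 9 genes encode fibrillar chains, 8 encode network-forming chains, 9 encode FACIT chains (fibril-associated collagens with interrupted helices) and 10 encode other kinds, such as the beaded filament collagen VI. A further 8 collagen genes of the RefSeq table were not analysed here.

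The Med1+/+ p53-/- cells (control) and the Med1-/- p53-/- cells, 2 arrays each, came from E10.0 embryos of C57BL/6J background, bred from a Med1+/- p53-/- male and a Med1+/- p53+/- female, and p53 was missing in both groups. Total RNA was measured on Affymetrix arrays. MED1 belongs to Mediator, which connects transcription factors with RNA polymerase II. No label states that replicate arrays stem from different embryos or cultures, so p-values reflect the spread between these samples only, which may be technical. Other differences between the embryos and the missing Med1 cannot be told apart.

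Collagens are the main structural proteins of the extracellular matrix. Each molecule is a helix of chains wound around one another, some made of identical chains and some of different ones, so that the supply of each chain matters for which molecules can form. Fibrillar collagens I, III, V and XI build the fibrils of skin, bone, tendon and cartilage, whereas collagen IV forms the sheet-like network of basement membranes. FACIT collagens sit on the surface of fibrils, collagen VI forms beaded microfilaments around cells, and collagen VII makes the anchoring fibrils that tie epithelium to the underlying stroma. Fibroblasts are a principal source of collagens I, III, V and VI.

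The deposited signals of the 4 arrays had no common scale, with medians of 76.25 and 106.65 for Med1+/+ against 36.1 and 51.4 for Med1-/-, and they were therefore quantile normalized. Values below are log2(normalized intensity + 1.7), which understates the change of dim genes, and changes are Med1-/- minus Med1+/+. Signal also depends on the probes, so no gene's level is set against another's. As deposited, Med1 read 664.6 and 885.6 in control cells against 25.4 and 40.2 in Med1-/- cells. The ratio of 3' to 5' signal ran from 1.22 to 1.52 for the actin control and from 0.900 to 1.11 for the Gapdh control. Of 13 fibroblast and mesenchyme markers, 12 passed the expression filter. Vim (13.67 to 13.77) and Fn1 (12.93 to 13.26), picked after their values were seen, were bright on all 4 arrays, whereas Pdgfra fell by 2.95 and Prrx1 fell by 2.89 in Med1-/- cells. Of the markers of other lineages on the array, 1 of 6 endothelial genes (Kdr, 4.69 to 5.72), 1 of 7 cartilage genes (Sox9, 6.88 to 7.58) and 1 of 5 osteoblast genes (Sp7, 4.84 to 6.47) passed the filter. Among the untested endothelial, cartilage and osteoblast genes, Pecam1, Cdh5, Acan, Matn1, Ibsp and Dmp1 reached at most 4.21 on any array. Matn3 reached 4.48, Comp 4.71, Alpl 4.91 and Phex 5.32. The filter was also passed by 5 of 6 epithelial, 5 of 6 smooth muscle, 2 of 5 macrophage and 1 of 3 tendon genes. The epithelial gene Krt18 read 11.28 and 11.31 in Med1+/+ against 7.13 and 6.57 in Med1-/- cells.

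In Med1-/- cells, collagen genes moved in both directions. Col1a1, the chain that supplies most of collagen I, rose 3.94-fold, and the basement membrane chain genes Col4a2 and Col4a1 rose 3.47-fold and 2.22-fold. Col7a1 rose 3.34-fold, Col3a1 2.15-fold and Col5a1 2.02-fold. Col6a3 fell 4.10-fold and Col11a1 3.83-fold. In bulk RNA, fewer cells of a type and less RNA per cell cannot be told apart. Of the 20 collagen genes above the filter (a mean at or above the 40th percentile, log2 4.98), 9 were called higher and 2 lower by limma at an adjusted p under 0.05, while 9 were not called. The background was high, since 75.3% of all 8923 features tested were called, 39.1% higher and 36.2% lower, against 55.0% of the collagens. The median absolute change was 0.487 for the 20 collagens and 0.836 for all features. In 16 of the 20 collagen genes the arrays of the genotypes did not overlap, a state found for 88.2% of all features. At least 2-fold and called were 8 collagen genes, against 40.4% of all features.

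The sign of a change depended on how the arrays were scaled, for the collagens as for all genes. After quantile normalization 51.9% of all calls were higher. The share was 59.9% when array medians were equalised, 52.9% for equal 75th percentiles, 6.45% in the values as deposited and 0.959% with arrays scaled to their Bacillus subtilis spike-in probe sets (controls). In the same order the median change of all features was 0.09, 0.30, 0.11, -0.76 and -1.72. The median of the 20 collagens was above that of all features by 0.20 after quantile normalization and by 0.29 to 0.30 under the other 4. Those 4 apply at most a single factor to each array, so this gap was nearly fixed in advance among them. They are not separate support for it. Of the collagen genes 13 were higher and 2 lower for equal medians, 9 and 2 for equal 75th percentiles, 2 and 4 as deposited, and 1 and 15 on the Bacillus subtilis controls. Col1a1 was higher, and Col6a3 and Col11a1 were lower, at an adjusted p under 0.05 (limma) under all 5 scalings. The median of all features was negative as deposited and on the Bacillus subtilis controls, so a fall could hardly lose its sign there. Col4a2 had a positive change under all 5 and lost its call only on the Bacillus subtilis controls (log2 0.13). All other values below are after quantile normalization, which measures a gene against the rest of its array.

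**Figure D1:**
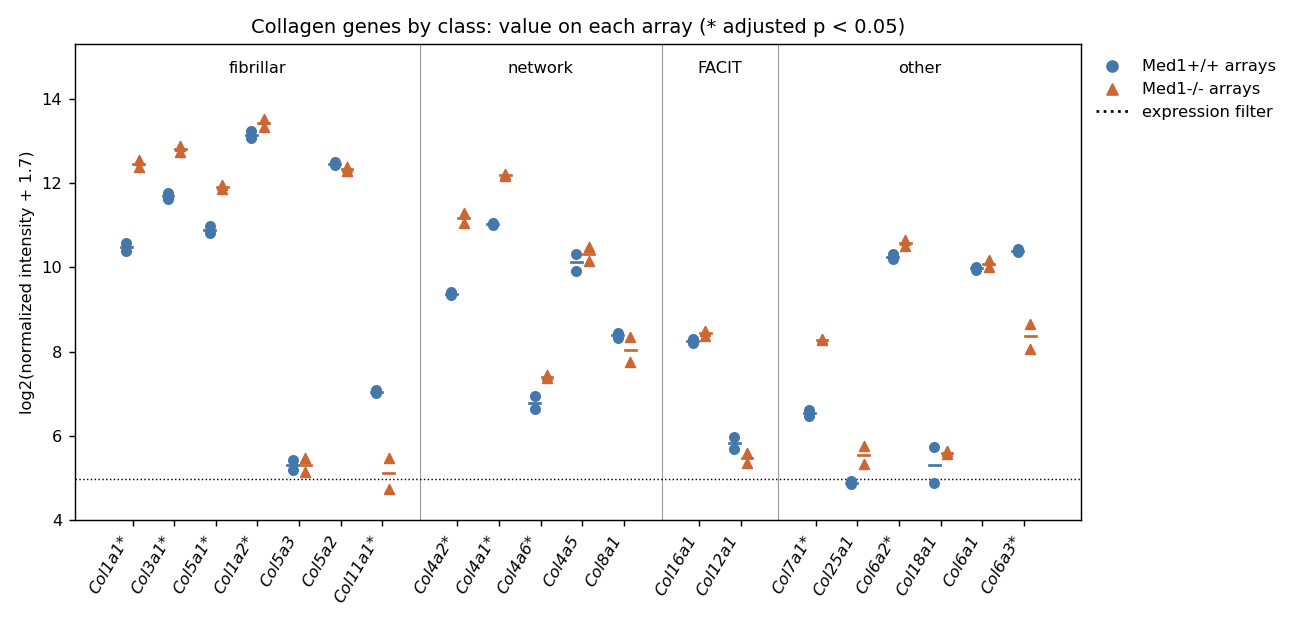
Value of each of the 20 collagen genes above the expression filter on each array, in log2(normalized intensity + 1.7), grouped by class; circles are Med1+/+ arrays, triangles Med1-/- arrays, short lines group means, the dotted line the filter at 4.98, and asterisks genes called by limma after quantile normalization. The 2 arrays of a genotype lie close together for most genes; Col1a1, Col4a2 and Col7a1 are clearly higher and Col6a3 and Col11a1 clearly lower in Med1-/- cells, and among these 5 the sign turns with the scaling only for Col7a1 (-0.16 on the Bacillus subtilis controls).

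**Figure D2:**
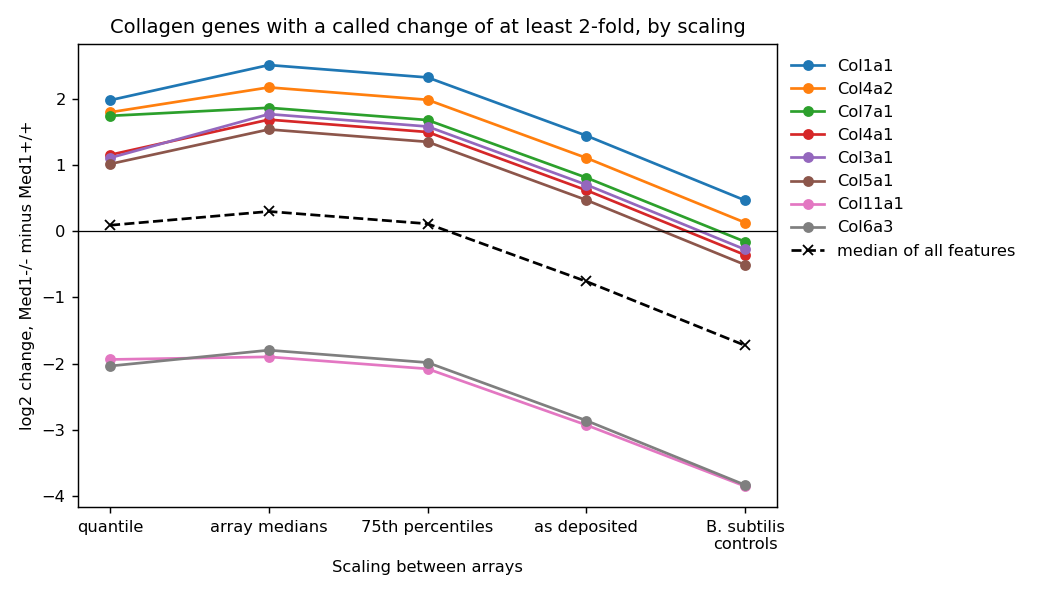
Log2 change, Med1-/- minus Med1+/+, of the 8 collagen genes called with at least a 2-fold change, under 5 scalings of the arrays; the dashed line is the median of all features, and lines only guide the eye. Col1a1 and Col4a2 stay above 0 and Col6a3 and Col11a1 below it under all 5, whereas Col7a1, Col4a1, Col3a1 and Col5a1 turn negative on the Bacillus subtilis controls.

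Promoter sequence was read for these 8 genes, because they carry the largest called changes, from RefSeq (build GRCm38.p6). Each stretch is the 180 bases before the most upstream annotated start of the gene, 5′ to 3′ on the gene's strand. Capitals mark matches, on either strand, to GGGCGG (the GC box), CCAAT (the CCAAT box) or TATAAA (the TATA motif). Col3a1 (chr1:45311358-45311537, plus strand), Col5a1 (chr2:27886201-27886380, plus strand) and Col7a1 (chr9:108953406-108953585, plus strand) were called higher, and Col11a1 (chr3:114030299-114030478, plus strand) and Col6a3 (chr1:90844002-90844181, minus strand) lower.
Col3a1: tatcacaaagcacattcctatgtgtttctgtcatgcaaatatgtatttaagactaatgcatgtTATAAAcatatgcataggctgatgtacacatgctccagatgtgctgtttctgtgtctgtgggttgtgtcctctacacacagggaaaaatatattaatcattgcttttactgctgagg
Col5a1: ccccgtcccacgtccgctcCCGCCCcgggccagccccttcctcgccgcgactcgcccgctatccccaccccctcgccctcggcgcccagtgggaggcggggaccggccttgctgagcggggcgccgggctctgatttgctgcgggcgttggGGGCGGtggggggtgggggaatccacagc
Col7a1: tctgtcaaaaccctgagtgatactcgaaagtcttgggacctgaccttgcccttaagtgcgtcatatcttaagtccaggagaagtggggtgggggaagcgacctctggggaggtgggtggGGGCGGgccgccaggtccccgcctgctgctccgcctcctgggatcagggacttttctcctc
Col11a1: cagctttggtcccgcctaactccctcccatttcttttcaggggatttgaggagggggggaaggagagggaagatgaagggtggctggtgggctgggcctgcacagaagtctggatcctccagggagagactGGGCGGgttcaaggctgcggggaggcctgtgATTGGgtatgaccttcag
Col6a3: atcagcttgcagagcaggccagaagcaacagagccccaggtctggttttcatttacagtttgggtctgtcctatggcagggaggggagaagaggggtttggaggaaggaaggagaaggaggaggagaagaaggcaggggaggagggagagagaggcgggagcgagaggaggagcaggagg
The Col3a1 stretch is AT-rich, with 37.2% GC, and holds 1 TATA motif and no GC box, whereas that of Col5a1 has 77.8% GC and 2 GC boxes. Col7a1 and Col11a1 hold 1 GC box each, Col11a1 also 1 CCAAT box, and Col6a3 none of these; their GC content runs from 58.3% to 60.6%. Among 13152 protein-coding genes with such a stretch, 36.7% held a GC box, 31.8% a CCAAT box and 10.4% a TATA motif, and the median GC content was 55.0%. The called-higher and called-lower stretches thus share no single arrangement of these letters, and a match is not a binding site. Col1a1 has no entry. The RefSeq entries of Col4a1 and Col4a2 start from opposite strands, and their transcribed parts overlap by 22 bases (chr8:11312805-11312826), so that what lies before one gene belongs to the other and no stretch is printed.

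Among the fibrillar genes, 7 of 9 passed the filter, 4 were called higher and 1 lower (71.4% called, against 75.3% of all features). Col1a1 encodes the more abundant chain of collagen I. Its values were 10.39 and 10.58 in Med1+/+ against 12.38 and 12.54 in Med1-/- cells, a change of 1.98 (SE 0.11; adjusted p = 3.47e-05, limma). The genotypes lie far apart, and the deposited signals, 1366.3 and 2225.2 against 3722.7 and 6043.6, run the same way before any scaling. A second probe set of the gene changed by 2.12. Col1a1 lies on chromosome 11 like Med1, with 79 protein-coding genes between them; of 36 tested there, 20 were higher and 6 lower (72.2% called), with a median change of 0.59. Whether the Col1a1 difference is tied to that chromosome region was not tested.

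Col1a2, the partner chain of Col1a1 in collagen I, read 13.24 and 13.06 in Med1+/+ against 13.52 and 13.33 in Med1-/- cells. The arrays do not overlap, but the change of 0.28 (SE 0.11, adjusted p = 0.0496, limma) only just passed, and it lost its call without Med1+/+ replicate 2 (adjusted p = 0.231, limma) and without Med1-/- replicate 1 (0.265), with no expression filter (0.141) and without an intensity trend in the variance (0.117). It was -0.064 in the values as deposited. Its probe set ranked 91 of 22626 by mean signal; whether this brightness bears on its small change was not tested. The other Col1a2 probe set, less bright, changed by 0.47.

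Col3a1, the single chain of collagen III, a partner of collagen I in soft tissue, had values of 11.78 and 11.63 in control cells against 12.88 and 12.73 in Med1-/- cells, a change of 1.11 (SE 0.10, adjusted p = 0.000115, limma). Col5a1, a chain of the collagen V that starts fibrils, read 10.98 and 10.82 against 11.96 and 11.87, a change of 1.01 (SE 0.10, adjusted p = 0.000147, limma). In both genes the genotypes are separate, with less spread within a genotype than between them; as deposited, both lost their call (0.70 and 0.47). The other Col5a1 probe sets changed by 1.82 and 1.97, more than the brightest one. Col5a2, which encodes the other main chain of collagen V, read 12.51 and 12.42 against 12.39 and 12.28. This small difference of -0.13 (95% interval -0.35 to 0.09) did not pass (adjusted p = 0.231, limma) and was 0.48 for equal medians, so its sign is not settled. Col5a3, another collagen V chain gene, read 5.18 and 5.44 against 5.48 and 5.16, with overlapping genotypes and a difference of 0.01 (95% interval -0.68 to 0.69).

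Col11a1 was the one fibrillar gene called lower. It encodes a chain of collagen XI, the minor fibrillar collagen best known from cartilage, which can also join collagen V chains. The values were 7.09 and 7.01 in Med1+/+ against 5.47 and 4.75 in Med1-/- cells, a change of -1.94 (SE 0.28, adjusted p = 0.000709, limma). The Med1-/- arrays differ by more than the Med1+/+ arrays do, and they lie near the filter, so the fall is measured against a dim value. A second probe set fell by 2.79. Col2a1 and Col11a2, the other cartilage chain genes of the fibrillar class, were below the filter, with deposited signals from 5.9 to 44.0. Among 7 cartilage markers only Sox9, the factor that activates cartilage collagen genes, was tested. It fell by 0.49 (adjusted p = 0.0276, limma). The summed level of the cartilage markers was 206 to 232 in Med1+/+ and 155 to 200 in Med1-/- cells. Only Sox9 among them passed the filter, so this sum is no separate measure of cartilage cells. Its part in the Col11a1 fall was not tested.

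**Figure D3:**
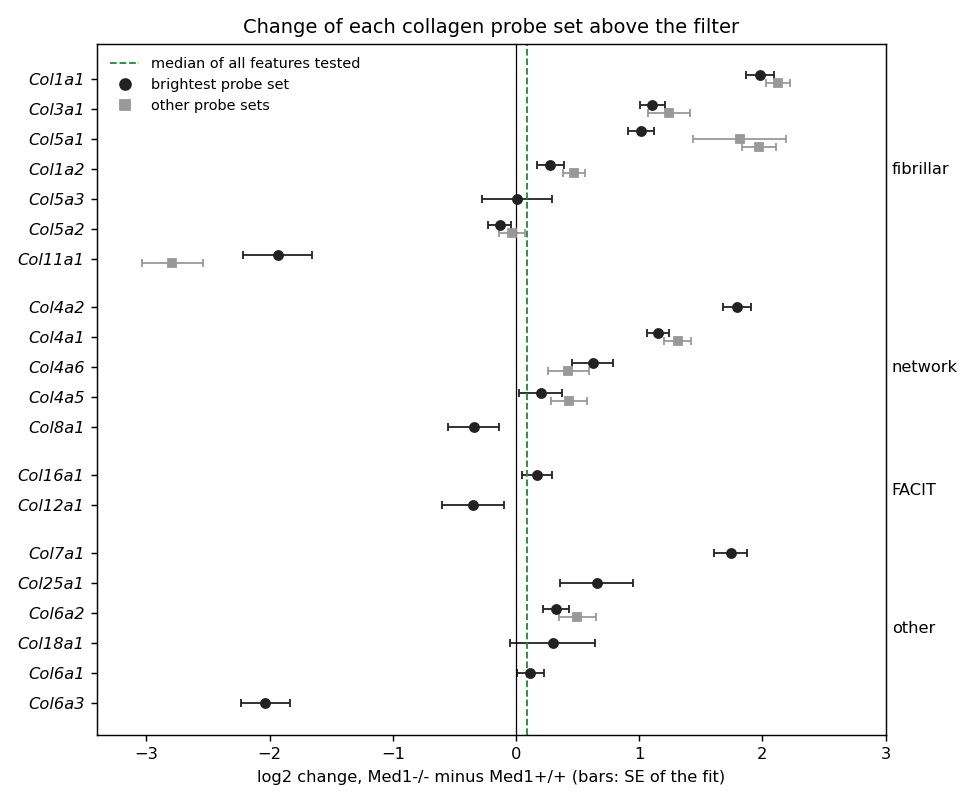
Log2 change, Med1-/- minus Med1+/+, of every collagen probe set above the filter after quantile normalization, with the SE of the fit; black circles are the brightest probe set of a gene, grey squares its others, and the dashed line is the median of all features (0.09). Where a gene has several such probe sets they lie on the same side of 0, as in all 10 such genes; sizes differ most for Col5a1 and Col11a1.

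Probe sets of the same gene see different parts of its transcript, and they gave the same sign in all 10 collagen genes that have several above the filter. For Col5a1 the range was 1.01 to 1.97, and for Col11a1 -2.79 to -1.94. For Col4a5, Col4a6 and Col1a2, whose changes were small, 1 of 2 probe sets passed when each was tested alone.

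Of the network-forming genes, 5 of 8 passed the filter, with 3 called higher and none lower (60% called, against 75.3% of all features). Col8a1, the 1 gene with a negative change, had an adjusted p of 0.155 (limma). Col4a1 and Col4a2 encode the chains of the collagen IV found in nearly all basement membranes, and are neighbours on chromosome 8. Col4a2 read 9.34 and 9.41 in control cells against 11.28 and 11.06 in Med1-/- cells, a change of 1.80 (SE 0.11, adjusted p = 4.23e-05, limma). Col4a1 read 11.05 and 11.02 against 12.16 and 12.21, a change of 1.15 (SE 0.09, adjusted p = 6.36e-05, limma), and its second probe set changed by 1.31. Both genes separate the genotypes widely, but as deposited Col4a1 lost its call (0.62, adjusted p = 0.182, limma).

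Col4a5 and Col4a6 encode collagen IV chains of more restricted basement membranes, such as those of kidney and smooth muscle, and are neighbours on the X chromosome. Col4a6 read 6.94 and 6.63 in control cells against 7.44 and 7.38 in Med1-/- cells, a change of 0.62 (SE 0.16, adjusted p = 0.0117, limma), which lost its call without Med1+/+ replicate 2 (0.0826). Col4a5 read 9.93 and 10.31 against 10.15 and 10.49, overlapping, with a difference of 0.20 (95% interval -0.20 to 0.60, adjusted p = 0.311, limma). Both changes were negative in the values as deposited (-0.38 and -0.54). Xist, the RNA of the inactive X chromosome, read 6723.6 and 7499.6 in control cells against 211.2 and 159.6 in Med1-/- cells as deposited. The Xist difference and the missing Med1 cannot be told apart for any gene compared here. Its part in these X-linked genes was not tested. Col8a1, a chain of the short-chain collagen VIII of vessel walls and cornea, read 8.33 and 8.45 against 7.75 and 8.34, a difference of -0.34 (95% interval -0.82 to 0.13) that did not pass. It was called lower without Med1-/- replicate 2 (-0.62, adjusted p = 0.0068, limma) and as deposited (-1.24, adjusted p = 0.016, limma), and was -0.048 without Med1-/- replicate 1. Col4a3, Col4a4 and the growth plate gene Col10a1 were below the filter, with deposited signals from 0.9 to 14.1.

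Only 2 of 9 FACIT genes passed the filter, and neither was called (75.3% of all features were). Col12a1, whose product coats collagen I fibrils, read 5.97 and 5.69 in control cells against 5.60 and 5.35 in Med1-/- cells, a difference of -0.35 (95% interval -0.96 to 0.25). Col16a1 read 8.31 and 8.21 against 8.50 and 8.36, a difference of 0.17 (95% interval -0.12 to 0.46). The genotypes do not overlap in either gene, but the distance is close to the spread within a genotype. The 7 others, Col9a1, Col9a2, Col9a3, Col14a1, Col19a1, Col20a1 and Col22a1, had 15 probe sets with deposited signals from 0.1 to 26.3, so these arrays give them no usable level.

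Among the other collagens 6 of 10 genes passed, 2 of them called higher and 1 lower (50% called, against 75.3% of all features). Col6a1, Col6a2 and Col6a3 encode the chains of the common form of collagen VI. Col6a3 read 10.43 and 10.36 in control cells against 8.66 and 8.06 in Med1-/- cells, a change of -2.03 (SE 0.19, adjusted p = 0.000128, limma); the deposited signals fell from 1406.2 and 1922.5 to 234.5 and 216.7. No array of one genotype comes near the other. Col6a1 read 10.01 and 9.94 against 10.17 and 10.01, a difference of 0.12 (95% interval -0.14 to 0.37, adjusted p = 0.352, limma). Col6a2 read 10.31 and 10.20 against 10.65 and 10.51, a change of 0.32 (SE 0.11, adjusted p = 0.0284, limma). That call was lost without Med1+/+ replicate 1 (0.052), without Med1+/+ replicate 2 (0.158), without Med1-/- replicate 1 (0.144) and without an intensity trend (0.0607), and the change was -0.38 as deposited. Col6a1 and Col6a2 are neighbours on chromosome 10, while Col6a3 lies on chromosome 1.

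Col7a1, the anchoring fibril chain made by keratinocytes and fibroblasts, read 6.48 and 6.61 in control cells against 8.29 and 8.28 in Med1-/- cells, a change of 1.74 (SE 0.13, adjusted p = 6.36e-05, limma). It is the sharpest of the other collagens in its separation, the 2 Med1-/- arrays being almost equal, although it lost its call in the values as deposited (0.81). Epithelial markers moved the opposite way: 4 of 5 tested were called lower, among them Cdh1, Krt18 and Dsp, against 36.2% of all features. None passed as higher, and the remaining one, Krt14, had a difference of 0.14 (adjusted p = 0.672, limma). The summed level of these markers was 4013 to 4135 in Med1+/+ and 275 to 317 in Med1-/- cells. Its part in the Col7a1 change was not tested. Col25a1, a membrane collagen first found in brain, read 4.87 and 4.92 against 5.77 and 5.33 and passed the filter through its Med1-/- values alone; its difference of 0.66 did not pass (adjusted p = 0.0843, limma). Col18a1, the basement membrane chain that contains endostatin, read 5.73 and 4.88 against 5.64 and 5.56, overlapping. Col13a1, Col15a1, Col17a1 and Col26a1 were below the filter. In all, 16 genes with 24 probe sets were not tested for this reason, with mean log2 values from 1.51 to 4.59.

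A difference between 2 genes on the same array is free of any single scale factor of that array. Its change between genotypes shows unequal change of the 2 probe sets used, which need not be that of the genes. Probe sets of the same gene also differed in change, from 1.01 to 1.97 for Col5a1 and from -2.79 to -1.94 for Col11a1. With 2 arrays against 2 an exact permutation test cannot go below p = 0.333 (two-sided), so the pair changes are descriptions. For collagen I, Col1a1 gained 1.70 on Col1a2 (SD within genotype 0.26, n = 2). For collagen V, Col5a1 gained 1.15 on Col5a2 (SD 0.03). Within collagen IV, Col4a1 lost 0.64 to Col4a2 (a change of -0.64, SD 0.15), while for Col4a5 against Col4a6 the change of -0.42 (SD 0.40) overlapped between genotypes and ran from -0.78 without Med1+/+ replicate 1 to -0.075 without Med1+/+ replicate 2. Col6a1 and Col6a2 shifted against each other by -0.21 (SD 0.02). Of 3 pairs chosen after their values were seen, Col6a1 gained 2.15 on Col6a3 (SD 0.22), Col5a1 gained 2.95 on Col11a1 (SD 0.31) and Col1a1 gained 0.87 on Col3a1 (SD 0.23). Quantile normalization is not a single factor: under the other 4 scalings Col1a1 gained 1.51 on Col1a2. The signs of these 8 changes were the same under the 5 scalings, but the other 4 apply at most a single factor to each array. Their match with one another was therefore nearly fixed in advance.

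**Figure D4:**
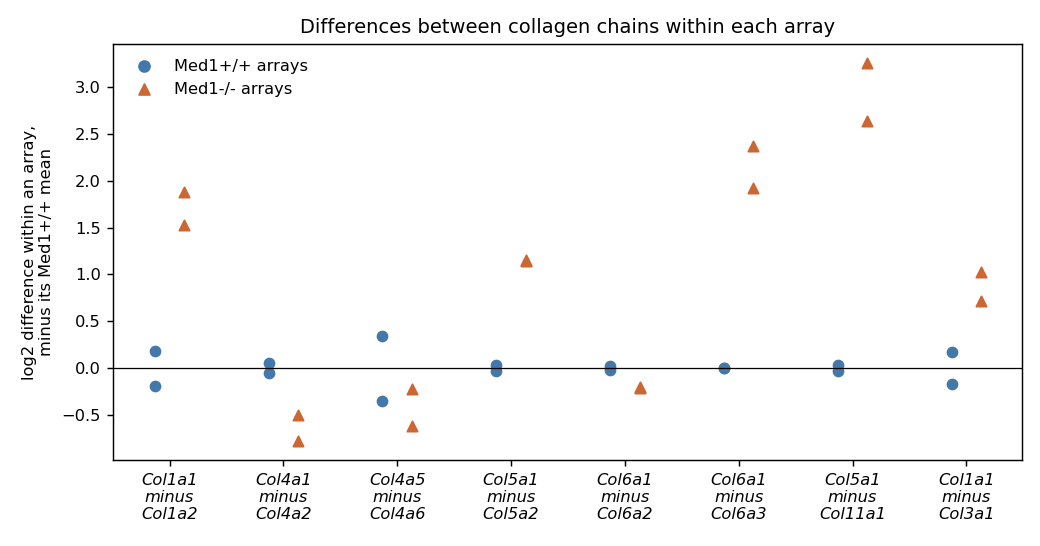
Difference in log2 value between 2 collagen chain genes on the same array, set to a mean of 0 over the Med1+/+ arrays for each pair; circles are Med1+/+ arrays and triangles Med1-/- arrays, and overlapping points hide one another. The Med1-/- arrays lie 1.70 higher for Col1a1 minus Col1a2 and 2.15 higher for Col6a1 minus Col6a3; the genotypes overlap only for Col4a5 minus Col4a6.

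Genes that build, modify and cross-link collagen moved in both directions after quantile normalization. Of 25 tested of 27 on the array, 10 were higher and 6 lower (64.0% called, against 75.3% of all features), with a median change of 0.35. P3h1, the prolyl 3-hydroxylase of the collagen chaperone complex, rose by 1.79, Plod1, a lysyl hydroxylase, by 1.69, and Loxl1, an enzyme of the lysyl oxidase family that cross-links matrix proteins, by 1.56. Loxl3, of the same family, fell by 1.69, Sec23a, a coat protein of the vesicles that carry procollagen, by 1.35, and P4ha1, a prolyl 4-hydroxylase subunit, by 0.84. Chosen after their values were seen, the collagen chaperone gene Serpinh1 rose by 1.12 and Crtap, the partner of P3h1, by 0.87, while the cross-linking enzyme gene Lox fell by 0.55 and P4hb, which encodes the other prolyl 4-hydroxylase subunit, by 0.72. The adjusted p of these 10 genes ran from 4.10e-05 for Loxl1 to 0.00504 for Lox (limma). Of these 10, Loxl3, Sec23a and P4ha1 kept sign and call under all 5 scalings. All of them fell, and the median of all features was itself negative as deposited (-0.76) and on the Bacillus subtilis controls (-1.72). The falls of Lox and P4hb lost their call for equal medians (-0.040 and -0.18; adjusted p = 0.788 and 0.272, limma) and for equal 75th percentiles (-0.23 and -0.36; adjusted p = 0.162 and 0.0504, limma). P3h1, Plod1, Serpinh1 and Crtap lost their call in the values as deposited (0.85, 0.77, 0.65 and 0.17). They turned negative on the Bacillus subtilis controls, where Loxl1 lost its call. Apart from scaling, P4ha1 lost its call when each probe set was tested alone (median change -0.70, median adjusted p = 0.0775, limma). For equal medians 15 genes of the list were higher and 4 lower, for equal 75th percentiles 11 and 4, as deposited 1 and 7, and on the Bacillus subtilis controls 0 and 21.

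Genes for collagen receptors, breakdown and regulation were also measured. Of the tested genes, 75% of the receptors, 50% of the breakdown genes and 50% of the regulators were called, against 75.3% of all features. Among 4 collagen receptor genes tested of 6, the receptor kinase gene Ddr1 rose by 1.33 and Mrc2, which takes up collagen, by 1.06, while the integrin beta 1 gene Itgb1 fell by 1.17 (adjusted p = 0.0423, 0.00511 and 0.000117, limma). The Ddr1 values of 10.00 and 11.51 against 11.62 and 12.55 nearly touch, its probe set can match other transcripts, and its call was lost without Med1+/+ replicate 1 (adjusted p = 0.156, limma) and without Med1-/- replicate 2 (0.129). Among 4 breakdown genes tested of 7, the collagenase gene Mmp13 was called lower (8.12 and 8.17 against 3.95 and 3.60) and the gelatinase gene Mmp2 rose by 0.86. Mmp13 passed the filter through its Med1+/+ values alone, so the size of its fall is not measured: the fitted change was -4.37, and -3.41 with a pseudocount of 16. Of 14 regulators tested of 17, 3 were higher and 4 lower. Creb3l1, a membrane-bound transcription factor known to activate Col1a1 in bone, rose by 2.51, from 6.22 and 6.18 to 8.64 and 8.77 (adjusted p = 3.15e-05, limma), and was called higher under all 5 scalings. The ligand genes Tgfb1 and Tgfb3 rose by 1.37 and 1.09. The Med1+/+ values of Tgfb1, 5.10 and 4.89, lie near the filter, so its rise is measured against a dim value. By contrast, the receptor gene Tgfbr1 fell by 1.25, Cbfb by 0.93 and Sp1, whose product binds GC boxes, by 0.80. Loss of a call or a turn of sign under other scalings affected Mmp2, Mrc2, Ddr1, Tgfb1 and Tgfb3. It did not affect Mmp13, Itgb1, Tgfbr1, Cbfb and Sp1, all of which fell. The median of all features was -0.76 as deposited and -1.72 on the Bacillus subtilis controls, so a fall could hardly lose its sign there. Mmp13 entered the main test through its Med1+/+ values alone. With no expression filter it was also called (adjusted p = 0.000101, limma), but the size of its fall stays unmeasured.

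**Figure D5:**
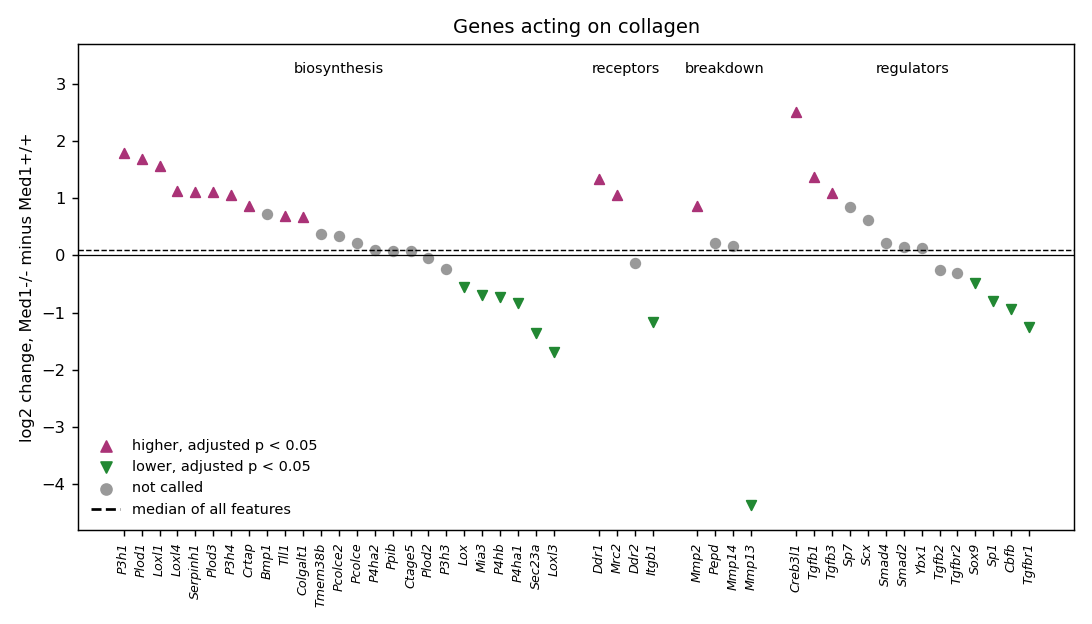
Log2 change, Med1-/- minus Med1+/+, of the tested genes of 4 lists of genes acting on collagen after quantile normalization; triangles mark calls at an adjusted p under 0.05 (limma), grey circles genes not called, and the dashed line the median of all features (0.09). Each list holds genes on both sides of 0, with Creb3l1 at 2.51; the point of Mmp13 (-4.37) rests on Med1-/- values below the filter and has no measured size; fewer were called higher as deposited and on the Bacillus subtilis controls.

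Markers of smooth muscle also rose: 5 of 5 tested markers were called higher, against 39.1% of all features. Actg2 rose by 5.39, Cnn1 by 4.09 and Smtn by 2.40. The summed level of the list was 13699 to 14068 in Med1+/+ and 29323 to 31146 in Med1-/- cells. Of the 12 fibroblast and mesenchyme markers tested, 66.7% were called, against 75.3% of all features. Among them 3 rose, Thy1 by 1.34, Twist1 by 1.23 and Twist2 by 0.58, and 5 fell, with S100a4 down by 2.68. The summed level of that list was 36827 to 39391 in Med1+/+ and 30563 to 32047 in Med1-/- cells. These marker changes are given after quantile normalization only. The part of these shifts in the collagen changes was not tested.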

How the data were processed

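The 4 arrays (2 per genotype, grouped by title) measured biotin-labelled total RNA, labelled by in vitro transcription per the labels' protocols. The deposited table holds 1 linear signal intensity per probe set; the sources used here do not say how the authors summarised probes, corrected background or scaled arrays, and hold no detection calls, so the number of arrays limits precision. Without 64 control probe sets, 22626 were quantile normalized, 1.7 (the 10th percentile of the table) was added and log2 was taken. The 9050 dimmest probe sets (mean below the 40th percentile) were dropped, and the brightest probe set stood for a gene. Genotypes were compared with limma 3.58.1 under R 4.3.3, by a two-sided moderated test whose prior variance follows intensity (lmFit, eBayes); p-values were adjusted by Benjamini and Hochberg across 8923 features; the procedure was tested on simulated data, whose noise model was revised after a first version fell short of the recovery asked for. In the simulated data few genes changed, in random directions, whereas 75.3% of features were called here. The simulation therefore does not show how the procedure performs at such a share. Intervals are 95% from the limma fit.

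Symbols came from the platform annotation, updated by Entrez identifier to RefSeq (GRCm38.p6): 20380 probe sets had 1 symbol, 691 several and 1555 none. All 58 collagen symbols matched before and after. The members, gene lists, tests and alternatives were chosen with earlier results of these data known. All collagen genes could be named, and from other lists up to 3 called rises and 3 called falls, unless a sentence says otherwise. Alternatives varied scaling, filter, pseudocount, probe set choice, variance model, a replicate block and the arrays left out. Figures were drawn with matplotlib 3.10.9. The pair Col8a1 and Col8a2 could not be formed, since Col8a2 was not analysed here.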

Additional observations from a re-analysis of the deposited data

How the results depend on the processing

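Scaling mattered most; the other alternatives (filters, pseudocount, probe set rule, variance model, block, arrays left out) reversed only Col5a3 (-0.12 without Med1+/+ replicate 1, -0.16 without Med1-/- replicate 1, at most 0.17 with 1 array left out) and Col18a1 (-0.13 without Med1+/+ replicate 2, at most 0.72), neither of them called. With equal medians, 2 breakdown genes and 6 regulators were higher and Col5a2 was 0.48; with equal 75th percentiles these were 2, 5 and 0.29, and Col5a3 was -0.15. As deposited, 2 collagens were higher and 4 lower; 1 biosynthesis gene, 0 receptors, 0 breakdown genes and 1 regulator were higher, and 2 receptors lower. There Col1a2 was -0.064, Col5a3 -0.98, Col4a6 -0.38, Col4a5 -0.54, Col16a1 -0.70, Col25a1 -0.32, Col6a2 -0.38, Col18a1 -0.70 and Col6a1 -0.64. On the Bacillus subtilis controls, higher and lower were 1 and 15 collagens, 0 and 21 biosynthesis genes, 0 and 3 receptors, 0 and 4 breakdown genes, and 1 and 12 regulators. There Col3a1 was -0.28, Col5a1 -0.51, Col1a2 -1.04, Col5a3 -1.91, Col4a1 -0.36, Col4a6 -1.34, Col4a5 -1.51, Col16a1 -1.68, Col7a1 -0.16, Col25a1 -1.25, Col6a2 -1.36, Col18a1 -1.63, Col6a1 -1.62, P3h1 -0.12, Plod1 -0.20, Serpinh1 -0.33, Crtap -0.81, Mmp2 -0.86, Tgfb1 -0.58, Tgfb3 -0.71, Ddr1 -0.19 and Mrc2 -0.78. Under these 4 scalings the pair changes were -0.49 (Col4a1, Col4a2), 1.06 (Col5a1, Col5a2) and -0.26 (Col6a1, Col6a2), with -0.17 to -0.14 for Col4a5, Col4a6, and with the mean of probe sets 1.68 for Col5a1, Col5a2 and -0.30 for Col6a1, Col6a2. That mean gave 2 breakdown genes and 5 regulators higher; each probe set gave 3 biosynthesis genes lower. Without a filter or an intensity trend 1 receptor was higher. The 60th percentile filter, which tests fewer genes, left 1 collagen and 0 breakdown genes lower. The cause of the other moves was not tested.

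Leaving out 1 array gave 6 to 10 collagens higher and 2 to 3 lower, 1 to 2 receptors, 1 to 2 breakdown genes and 3 to 5 regulators higher, and pair changes of 1.11 to 1.19 (Col5a1, Col5a2) and -0.24 to -0.19 (Col6a1, Col6a2), and -0.78 to -0.075 for Col4a5, Col4a6; the lone array is assumed to vary like the other group. Same-numbered arrays deviated together only weakly (correlation 0.27), in 2 pairs, so the numbers were not taken as a pairing; with the replicate block 10 collagens were higher and 4 lower, and 6 regulators higher. Signal near background leaves 16 collagen genes without a usable level.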
